A study of Mus musculus with 21 samples.

Results

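Messenger RNAs known from the T-cell lineage were followed in conventional dendritic cells (cDCs) of spleen and thymus. The set held 10 of the 37734 genes measured, namely the coreceptor genes Cd4, Cd8a and Cd8b1, the CD3 genes Cd3d, Cd3e and Cd3g, and Lck, Themis, Rag1 and Dntt. They were taken by gene name, and the choice was made with their levels in these samples known, so their levels are given as a description without a test. All 10 passed the filter on low values, a normalized read count of at least 10 in at least 3 samples. The set had been proposed as Cd4 and Cd8a, which cDCs express, beside genes of thymocytes only, with Cd8b1 among the latter. The data did not follow that division for Cd8b1, as described below.

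All cells came from C57BL/6 (B6) mice aged 6 to 8 weeks, with no genetic modification or treatment named in the labels. Each library was made from a pool of 10 to 15 mice. CD11c+ cells were enriched on magnetic beads and FACS-sorted as cDC1 (CD11c+CD24+CD11b-, negative for B220, F4/80, DX5, Ly6c and Ly6g) or cDC2 (CD11c+CD11b+, negative for CD24 and B220), each either immature (CCR7-Esam-) or mature (CCR7+Esam+). Among cDC1 there were 5 libraries of immature splenic, 4 of immature thymic and 3 of mature thymic cells, and among cDC2 there were 3 of each of these kinds, which made 6 groups. The listed gate holds no T-cell antigen, and CD24, which defined the cDC1, is also carried by immature thymocytes. Libraries held 14266867 to 40119669 reads. Splenic cDC1 replicates 4 and 5 differed far less than every other pair of that group (chi-square per degree of freedom 2.44, against 25.0 to 176) and were averaged as 1 sample, called replicate 4, which left 20 samples. Immature thymic cDC1 replicates 3 and 4 also shared library number, index and lane. They differed more than every other pair of their group (92.8, against 22.8 to 86.1) and were kept as separate samples. Since the labels do not say that replicates came from separate sorts, p-values measure the spread between these samples.

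The sorts carried their defining transcripts in part. Xcr1, a chemokine receptor of cDC1, had 8385 to 20744 normalized reads in immature cDC1 and 26.1 to 364 in immature cDC2. Ccr7 lay between 91722 and 129531 in mature samples and between 261 and 5433 in immature samples, and Esam between 896 and 1323 against 1.07 to 86.9. In mature cDC1, Xcr1 itself was at 253 to 557. Itgam, the gene of CD11b, was at 305 to 1802 in immature cDC2 but 3.14 to 32.7 in mature cDC2, against 6.76 to 60.7 in immature cDC1. Cd209a of cDC2 was at 17259 to 19971 in immature thymic and 23.5 to 215 in mature cDC2. Batf3 of cDC1 was at 3243 to 5405 in mature cDC2 and 4509 to 5683 in mature cDC1. Mature subsets still differed in Xcr1, at 11.0 to 25.1 in cDC2, and in Sirpa, at 286 to 481 in cDC1 and 5415 to 8425 in cDC2.

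CD4 and CD8 are the coreceptors with which T cells bind MHC class II and class I. CD8 is either a heterodimer of the products of Cd8a and Cd8b1, as on most thymocytes and cytotoxic T cells, or a homodimer of the Cd8a product, the form known from lymphoid-tissue cDC1, while CD4 is known from a large part of splenic cDC2. CD3 proteins carry the signal of the T-cell receptor, LCK is the kinase bound to the coreceptors, THEMIS acts in receptor signaling during thymic selection, and RAG1 and the Dntt product, terminal deoxynucleotidyl transferase, build the receptor genes in thymocytes. The mm10 positions, from GENCODE M21, are all of protein-coding genes. Cd8b1 (chr6:71322788-71337494) lies 35.9 kb from Cd8a (chr6:71373427-71379173), both on the plus strand, and Cd4 (chr6:124864692-124888221, minus strand) lies farther along that chromosome. Cd3g (chr9:44969572-44980431, minus), Cd3d (chr9:44981786-44987339, plus) and Cd3e (chr9:44998740-45009627, minus) form 1 cluster. The others are Lck (chr4:129548344-129573641, minus), Rag1 (chr2:101638282-101649501, minus), Dntt (chr19:41029275-41059525, plus) and Themis (chr10:28668360-28883818, plus). Exons of Cd3e and Themis overlap antisense transcripts by 135 and 153 bases, and exons of Rag1 and Lck overlap other transcripts of the same strand by 80 and 25 bases. The strand setting of the counting is not given in the sources used here, so reads in the antisense overlaps cannot be assigned to a strand.

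The sequences upstream of a coreceptor gene and of a recombination gene are shown, Cd8a for its high level in splenic cDC1 and Rag1 for at most 2 reads in any splenic sample. RefSeq promoter entries (GRCm38.p6) were found for 8 of the 10 members, and the 250 bases before the annotated start were searched. The Cd8a window is chr6:71373177-71373426 on the plus strand and the Rag1 window is chr2:101649533-101649782 on the minus strand. Capitals mark TGTGGT, the core motif of RUNX factors, on either strand.
Cd8a: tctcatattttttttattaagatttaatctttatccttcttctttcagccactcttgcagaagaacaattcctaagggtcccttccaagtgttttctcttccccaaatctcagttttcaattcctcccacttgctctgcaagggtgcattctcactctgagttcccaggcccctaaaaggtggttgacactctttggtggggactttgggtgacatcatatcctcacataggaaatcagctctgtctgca
Rag1: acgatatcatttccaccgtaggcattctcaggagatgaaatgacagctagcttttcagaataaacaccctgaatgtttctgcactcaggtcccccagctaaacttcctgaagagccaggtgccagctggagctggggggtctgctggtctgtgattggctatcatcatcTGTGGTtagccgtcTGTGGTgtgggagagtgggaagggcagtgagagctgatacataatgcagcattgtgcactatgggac

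TGTGGT stood at 2 places in the Rag1 window and not in that of Cd8a, and of the other members with an entry Lck held it in 1 of its windows. Of all 32851 RefSeq promoter windows of that length, 14.0% held TGTGGT. The E-box CANNTG stood in windows of all 8 members with an entry, 9 of their 10 windows, and in 66.2% of all windows. On either strand, the ETS motif CAGGAAG was in windows of 3 of the 8 members (10.8% of all windows), the GATA motif AGATAA in 2 (9.99%), the TCF/LEF motif CTTTGA in 1 (13.8%) and the AP-1 motif TGANTCA in 0 (6.75%).

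Per kilobase of exon, Cd8a had the highest mean level of the set in each group other than splenic cDC2, where Cd4 was higher. Its levels in cDC1 lay above those in cDC2 of the same tissue and state. Its normalized read counts in immature splenic cDC1 were 16834, 16442, 15967 and 16368. In immature thymic cDC1 they were 6281, 6675, 8144 and 5341, and in mature thymic cDC1 6798, 5739.8 and 9342. The splenic cDC1 level was 2.48-fold that of immature thymic cDC1 with no overlap, whereas the immature and mature thymic cDC1 overlapped. Their difference of mean log2 values, 0.13 higher in mature cells, became -0.07 without the third mature sample. Across all genes tested, 8.92% were lower in every thymic than in every splenic cDC1 sample, a background given for this contrast and read no further because the set was chosen with it known.

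In cDC2, the order of the tissues for Cd8a was the opposite. Immature splenic cDC2 had 286, 218 and 156 normalized reads, immature thymic cDC2 755, 1206 and 1289.7, and mature thymic cDC2 1968, 1677 and 2099. No sample of one of these groups reached into another. The thymic level was 4.92-fold the splenic level among immature cDC2, and the mature level was 1.77-fold the immature level in the thymus. Splenic cDC1 exceeded splenic cDC2 by 74.5-fold, immature thymic cDC1 exceeded cDC2 by 6.10-fold and mature thymic cDC1 exceeded cDC2 by 3.81-fold.

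Cd4 was highest in immature splenic cDC2, at 4524, 5379.9 and 5489.8 normalized reads. It was at 589, 560.5 and 808 in immature thymic cDC2 and at 1246, 1517 and 523 in mature thymic cDC2. The splenic level was 7.86-fold the immature thymic level with no overlap. The mature cDC2 were not separated from the immature cDC2, because the third mature sample lay below all 3 immature ones. The mature minus immature difference of mean log2 values was 0.63, and 1.09 without that sample. In that sample the summed normalized reads of the macrophage genes C1qa, C1qb, C1qc and Mertk were 1633, against 12590 and 13496 in the other mature cDC2 samples, and the part of this difference in the Cd4 value was not tested.

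Cd4 was lower in cDC1 than in cDC2 of the same tissue and state. Splenic cDC1 held 487, 526, 783 and 489.6 normalized reads, immature thymic cDC1 142, 102, 98.3 and 56.6, and mature thymic cDC1 221, 355 and 156. Splenic cDC1 exceeded immature thymic cDC1 by 5.72-fold, and mature thymic cDC1 exceeded immature thymic cDC1 by 2.45-fold, both without overlap. In the order of group means, the neighbours whose samples overlapped were mature and immature thymic cDC2, and immature thymic cDC2 and splenic cDC1.

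Cd8b1 did not follow Cd8a. It was at 40.1, 73.0, 70.2 and 53.5 normalized reads in splenic cDC1 (39 to 141 reads) and at 57.4, 54.1, 68.7 and 78.8 in immature thymic cDC1, which overlapped. It was at 1034, 529 and 1015 in mature thymic cDC1, 13.3-fold the immature level and the highest of the 6 groups. In cDC2 it was at 6.41, 6.87 and 9.78 in the spleen, at 93.9, 75.7 and 103 in immature thymic cells and at 177, 198 and 222 in mature thymic cells, again with no overlap between these 3 groups. Mature thymic cDC1 exceeded mature thymic cDC2 by 4.32-fold, and splenic cDC1 exceeded splenic cDC2 by 7.70-fold. In splenic cDC1, where Cd8b1 was counted in every sample, Dntt and Themis had no read and Rag1 at most 2 reads in any sample, so Cd8b1 transcripts were not limited to samples with these thymocyte transcripts.

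**Figure D1:**
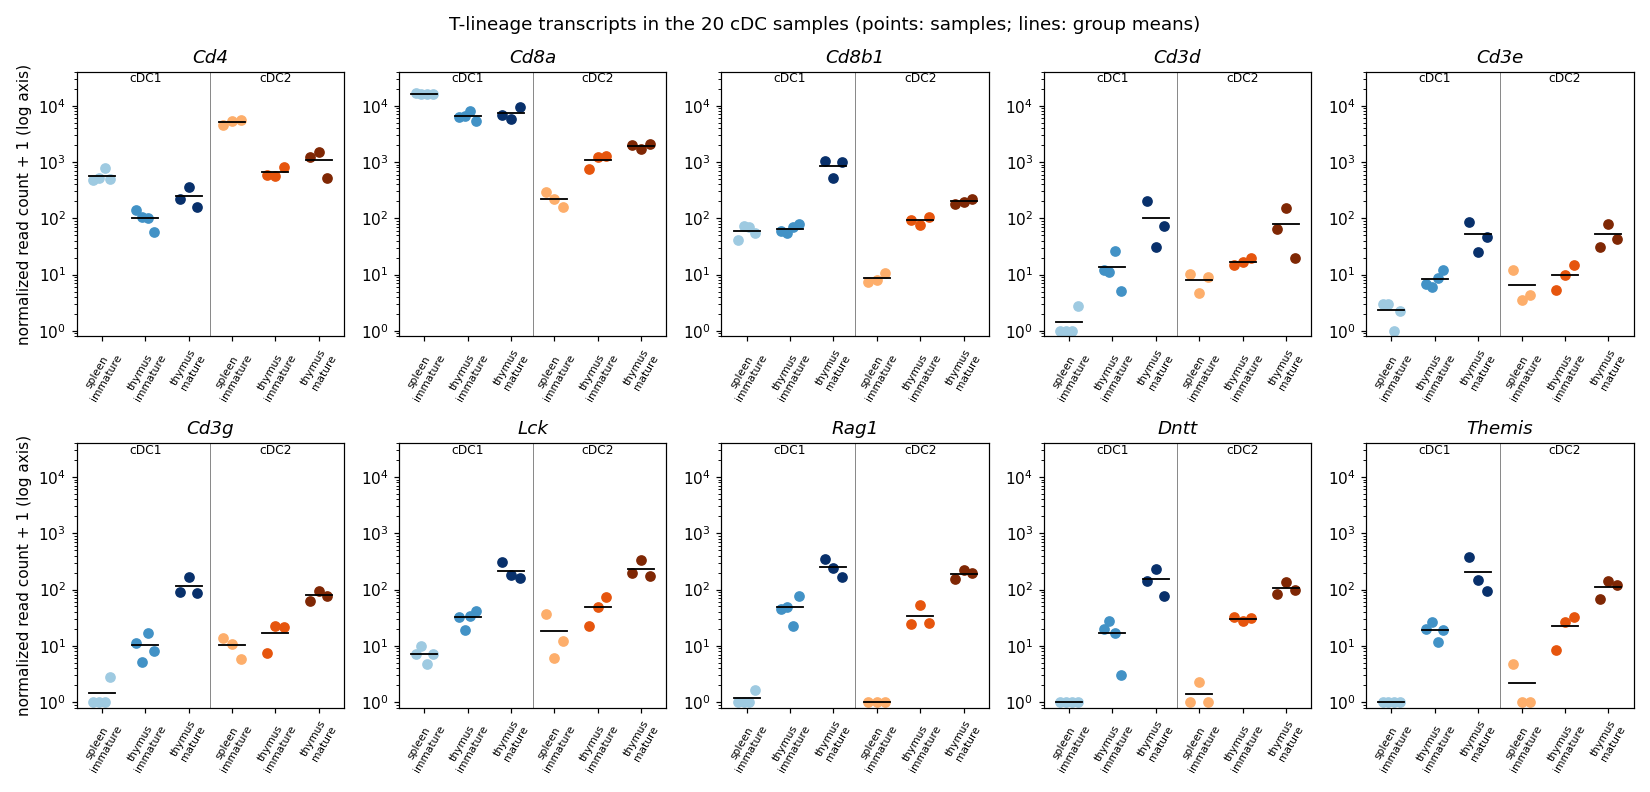
Normalized read count plus 1 (log axis) of the 10 members in the 20 samples, grouped by cDC1 or cDC2, tissue and maturation state, with points for samples and lines for group means. Cd8a is highest in splenic cDC1 and Cd4 in splenic cDC2, whereas Rag1, Dntt and Themis are near 0 in spleen and highest in mature thymic samples, and Cd8b1 is highest in mature thymic cDC1, at 529 to 1034.

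Ratios of reads within a library do not depend on its size factor. The number of Cd8a reads per Cd8b1 read was 225 to 419 in splenic cDC1, 67.8 to 123 in immature thymic cDC1 and 6.57 to 10.9 in mature thymic cDC1. It was 16.0 to 44.7 in splenic cDC2, 8.03 to 15.9 in immature thymic cDC2 and 8.49 to 11.1 in mature thymic cDC2. The ranges of the ratio thus overlapped between both mature thymic groups although their Cd8a levels did not overlap. Per kilobase of exon, the mean level of Cd8a was 4510 and that of Cd8b1 39.9 in splenic cDC1, whereas in mature thymic cDC1 they were 2005 and 579, and in mature thymic cDC2 526 and 134. Cd4 reads per Cd8b1 read were 562 to 783 in splenic cDC2 and 0.154 to 0.672 in mature thymic cDC1.

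The recombination genes were absent or nearly absent from the spleen. Rag1 was at 0, 0, 0 and 0.637 normalized reads in splenic cDC1 and at 0 in all 3 splenic cDC2 samples. In immature thymic cells it was at 44.8, 48.3, 21.8 and 75.8 in cDC1 and at 23.5, 51.6 and 24.9 in cDC2. In mature thymic cells it was at 345, 243 and 166 in cDC1 and at 150.5, 219 and 192 in cDC2. Mature samples lay above all immature ones, by 5.27-fold in cDC1 and 5.62-fold in cDC2, and cDC1 and cDC2 overlapped in both states. Against a floor of 3 reads per library, immature thymic cDC1 were at least 17.8-fold and immature thymic cDC2 at least 10.5-fold higher than the splenic counterparts. In bulk samples, more cells with a transcript and more transcript per cell cannot be told apart.

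Dntt followed the same order of tissue and maturation state. Unlike Rag1, it was higher in every immature thymic cDC2 than in every immature thymic cDC1 sample, at the nearest by 26.8 against 26.7. It was at 0 in splenic cDC1 and at 0, 1.25 and 0 in splenic cDC2. Immature thymic cDC1 had 18.6, 26.7, 15.6 and 2.02 normalized reads and immature thymic cDC2 31.0, 26.8 and 29.6, whereas mature thymic cDC1 had 142, 234 and 76.8 and mature thymic cDC2 82.9, 133 and 98.9. The mature level was 9.60-fold the immature level in cDC1 and 3.60-fold in cDC2, with no overlap. Rag1 reads per Dntt read were 1.04 to 2.43 in mature cDC1 and 1.65 to 1.94 in mature cDC2.

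Rag2, whose product forms the recombinase with RAG1, stayed between 0 and 15.2 normalized reads in all samples, and Ptcra, the surrogate alpha chain of immature thymocytes, between 0 and 3.26. Neither passed the filter. In mature cDC2 there were 20.4 to 63.0 Rag1 reads per Rag2 read, on only 5 to 12 Rag2 reads per sample. In the other groups the ratio was taken where Rag2 had more than 3 reads. It was 5 and 11.6 in 2 immature thymic cDC1 samples and 10.9 in 1 mature cDC1 sample.

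Lck, the coreceptor-bound kinase, had reads in all samples and was at 3.69 to 8.88 normalized reads in splenic cDC1. It was at 35.7, 5 and 11.4 in splenic cDC2, where 1 sample stood apart. Immature thymic cDC1 held 31.3, 18.3, 32.8 and 41.4 and immature thymic cDC2 21.3, 47.5 and 73.2. Mature thymic cDC1 held 309.7, 177 and 159 and mature thymic cDC2 195, 329 and 177. The mature samples lay above all immature ones, by 6.95-fold in cDC1 and 4.93-fold in cDC2, and mature cDC1 and cDC2 overlapped.

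Themis had no read in splenic cDC1 and 3.66, 0 and 0 normalized reads in splenic cDC2. It was at 10.9 to 25.8 in immature thymic cDC1 and 7.47 to 31.2 in immature thymic cDC2. In mature thymic cDC1 it was at 372, 149 and 91.9 and in mature thymic cDC2 at 68.3, 139 and 119. The mature groups exceeded the immature ones by 11.1-fold in cDC1 and 5.09-fold in cDC2 without overlap, and overlapped each other. Without the first mature cDC1 sample, the fold in cDC1 was 6.56.

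The CD3 genes had few reads in the spleen. In splenic cDC1 Cd3d and Cd3g were at 0 in 3 samples and at 1.76 in the fourth, and Cd3e was at 0 to 2.06. In splenic cDC2 they were above all splenic cDC1 samples, at 3.75 to 9.15 for Cd3d, 2.5 to 11.0 for Cd3e and 4.89 to 12.8 for Cd3g. These splenic cDC2 also held 99.4 to 180 summed normalized reads of the NK-cell genes Ncr1, Klrb1c, Eomes and Gzma, against 0 to 9.09 in the other 5 groups, mostly from Gzma with a mean of 107 ± 51.5 (SD, n = 3). The part of such cells in the CD3 values was not tested.

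In the immature thymus, Cd3d was at 4.04 to 25.0 in cDC1 and 13.9 to 18.7 in cDC2, Cd3e at 5 to 11.1 and 4.27 to 14.0, and Cd3g at 4.16 to 15.6 and 6.40 to 21.4. Mature samples spread widely. Cd3d was at 199, 29.5 and 71.2 in mature cDC1 and at 64.5, 149.6 and 18.8 in mature cDC2. Cd3e was at 86.6, 24.3 and 45.6 and at 29.9, 79.3 and 42.4, and Cd3g at 90.3, 168 and 86.4 and at 61.4, 94.7 and 76.1. For each CD3 gene every mature sample lay above every immature sample of its subset, from 4.83-fold for Cd3g in cDC2 to 12.4-fold for Cd3g in cDC1, although the third mature cDC2 sample of Cd3d exceeded the highest immature one only at 18.8 against 18.7. The folds of Cd3d rested on single samples, since 7.99 in cDC1 became 4.03 without the first mature sample and 4.86 in cDC2 became 2.61 without the second.

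Counted over the set, 9 of the 10 members had higher values in every mature than in every immature thymic sample, in cDC1 as in cDC2. The exceptions were Cd8a in cDC1 and Cd4 in cDC2. Over all genes tested, 27.3% in cDC1 and 31.1% in cDC2 did so. Between thymic and splenic immature cells, 7 members were higher and 2 lower in cDC1 (8.84% and 8.92% of all genes) and 6 higher and 1 lower in cDC2 (22.2% and 17.1%). The set was chosen with these contrasts known, and nothing is read from these shares.

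Most members, but not all, were highest in the same mature sample of a subset. Of the 8 members other than Cd4 and Cd8a, 6 were highest in the first mature cDC1 sample and 2, Cd3g and Dntt, in the second, in which Cd8b1, Cd3d and Cd3e were at their lowest. In mature cDC2, 7 were highest in the second sample and 1, Cd8b1, in the third. The shares of all genes highest in these samples were not computed, so nothing is read from these counts. Cd8b1 reads per Rag1 read were 2.18 to 6.11 in mature cDC1 and 0.902 to 1.17 in mature cDC2, and Cd8b1 reads per Cd3d read ranged from 5.19 to 17.9 and from 1.32 to 11.8. All mature libraries ran on lane 8. With libraries of lane 8 alone, the mature minus immature differences of mean log2 values were 3.61 for Cd8b1, 2.45 for Rag1 and 2.77 for Lck in cDC1, and 1.16, 2.33 and 1.91 in cDC2.

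Genes outside the set were tested with limma, on log2 of the normalized read count plus 1, and called if the p adjusted by Benjamini and Hochberg was below 0.1 and the change more than 2-fold. In all, 5 lists of T-lineage, regulatory and kinase genes held 53 genes, of which 50 passed the filter. In mature against immature thymic cDC1, 30 of the 50 rose and 13 fell, where 21.3% of all genes rose and 24.5% fell. In cDC2, 29 rose and 9 fell, against 18.6% and 17% of all genes. The filter was met by 7 of the 50 only through the mature samples, which favored a rise, so the maturation counts are also given over genes that met it in the remaining samples. Of 43 such list genes, 24 rose and 13 fell in cDC1, against 18.9% and 26% of all 14047 such genes, and 23 rose and 9 fell in cDC2, against 15.6% and 18.1%. In thymic against splenic immature cells, 18 were higher and 1 lower in cDC1 (4.26% and 4.52% of all genes) and 13 higher and 6 lower in cDC2 (8.3% and 5.87%). These lists were compiled with earlier results of the samples known.

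Between the subsets, 4 members (Cd4 and the CD3 genes) were higher and 2 (Cd8a and Cd8b1) lower in every splenic cDC2 than in every splenic cDC1 sample, where 17% and 14.7% of all genes were so. In the immature thymus Cd4 and Dntt were higher and Cd8a lower in cDC2 (20.2% and 14.5% of all genes), and in the mature thymus Cd4 was higher and Cd8a and Cd8b1 lower (20.7% and 12.1%). Of the 50 list genes, 17 were higher and 2 lower in splenic cDC2 (9.93% and 6.7% of all genes), 6 higher and 1 lower in immature thymic cDC2 (11% and 5.42%) and 6 higher and 4 lower in mature thymic cDC2 (14.6% and 4.36%). Blk, Gata3 and Sh2d1a met the filter only through cDC2 samples, which favored a higher value there. Over the other 47, 16 were higher and 2 lower in splenic cDC2, and the thymic counts were the same. Shares of all genes filtered in this way were not computed. The receptor and signaling list accounted for 8 of those higher in splenic cDC2, the samples with the Gzma reads given above. The thymic minus splenic difference was more positive in cDC2 than in cDC1 for 2 list genes and more negative for 7 (3.27% and 1.71% of all genes), and the mature minus immature difference more positive for 1 and more negative for 3 (8.34% and 5.25%).

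Among genes of the T-cell receptor complex and its signaling, 12 met the filter without the mature samples. Of these, 12 rose with maturation in cDC1 and 10 in cDC2, and none fell. Of all genes filtered in this way, 18.9% rose and 26% fell in cDC1, and 15.6% rose and 18.1% fell in cDC2. Their median log2 change was 2.73 in cDC1 and 2.44 in cDC2, against -0.12 and -0.02 over all genes filtered in this way. Cd28, Sh2d1a, Trat1 and Ubash3a met the filter only through the mature samples and are not counted here. Cd247, the zeta chain, was at 1.01 to 15 normalized reads in immature and 227 to 441 in mature thymic cDC1. It rose by 5.90 ± 0.60 (log2, SE; limma adjusted p = 4.07e-08) in cDC1 and by 2.92 ± 0.64 (adjusted p = 0.000768) in cDC2, where it went from 9.61 to 18.7 up to 82.4 to 139. The maturation change in cDC2 minus that in cDC1 was -2.98 ± 0.88 (adjusted p = 0.0285). Icos, a costimulatory receptor of activated T cells, went from 31.3 to 90.5 up to 689 to 889 in cDC1 and rose by 3.94 ± 0.36 (adjusted p = 7.28e-09), and in cDC2 by 4.11 ± 0.38 (adjusted p = 2.25e-08). Trac, the constant region of the alpha chain, rose by 2.76 ± 0.58 (adjusted p = 0.000347) in cDC1 and 2.55 ± 0.62 (adjusted p = 0.00184) in cDC2, up to 72.0 to 97.7 and 80.6 to 192.

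Among genes of thymocyte stages, 6 met the filter without the mature samples, and these 6 rose with maturation in each subset. Of all genes filtered in this way, 18.9% rose in cDC1 and 15.6% in cDC2. Arpp21 and Gata3, an early T-lineage factor, were among 3 that met it only through the mature samples. Levels in this list spanned a wide range. Tcf7, which encodes the T-lineage factor TCF1, was at 88.9 to 171 in immature and 9285, 10065 and 10919 in mature thymic cDC1, and rose by 6.20 ± 0.24 (adjusted p = 2.95e-14). In cDC2 it was at 154 to 305 and then at 12698, 11323 and 12501, and rose by 5.68 ± 0.26 (adjusted p = 1.15e-12). Myb, a factor of hematopoietic progenitors and thymocytes, was at 4083 to 5404 in mature cDC1 and 801 to 1261 in mature cDC2, and was lower in cDC2 than cDC1 in all 3 comparisons, with a log2 difference of -2.30 ± 0.20 (adjusted p = 7.72e-08) between the mature groups. Mature samples thus held 801 to 12698 normalized reads of Tcf7 and Myb, and 76.8 to 345 of Rag1 and Dntt.

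**Figure D2:**
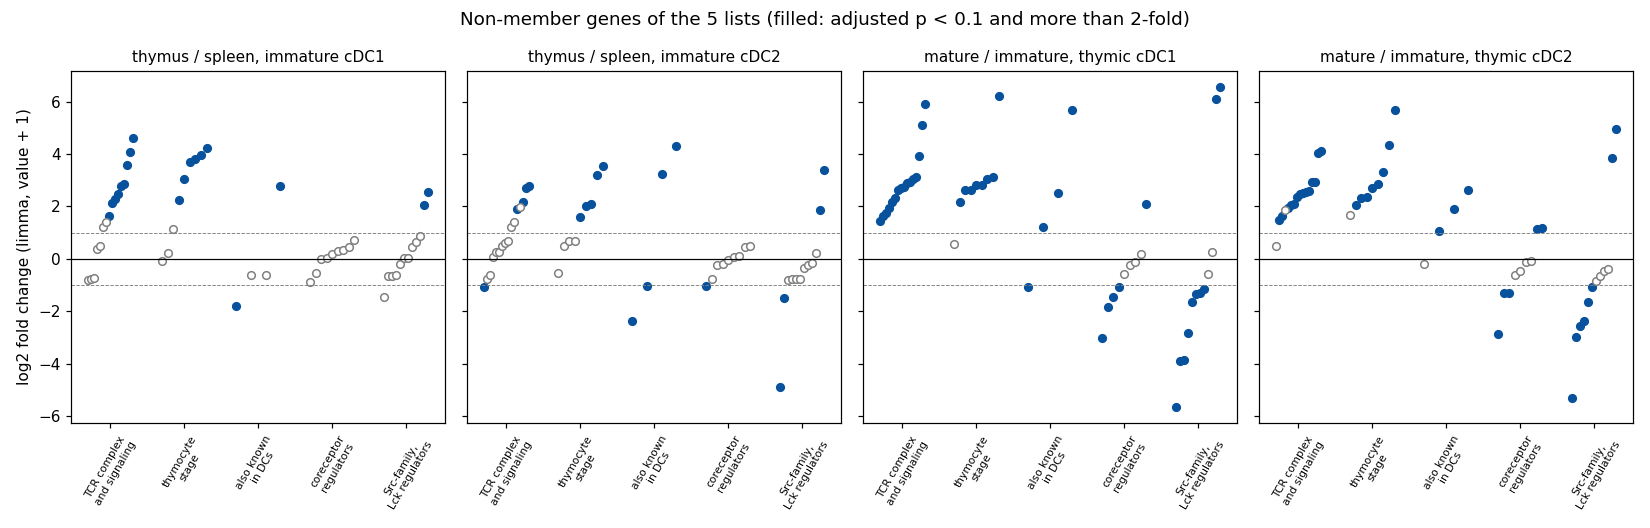
Log2 fold change (limma, normalized read count plus 1) of the genes of the 5 lists in 4 comparisons, with filled points for genes that passed the test and dashed lines at a 2-fold change. All 50 tested genes are drawn, including the 7 that met the filter only through the mature samples, and the Src-family list has 8 genes that fall with maturation in cDC1 and 6 in cDC2.

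The 209 genes annotated as T-cell receptor V, D, J or C segments are listed apart from the members, although Trac, Trbc1 and Trbc2 are also in the receptor list above. Their summed normalized reads were 3.09 to 10.2 in splenic cDC1, 36.2 to 63.1 in splenic cDC2, 98.3 to 107 in immature thymic cDC1 and 77.9 to 206 in immature thymic cDC2. They were 595, 889 and 495 in mature cDC1 and 519.7, 1084 and 734 in mature cDC2. All mature samples lay above all immature ones. Trbc2, the most abundant, was at 128 to 319 in mature cDC1 and 186 to 339 in mature cDC2. Trbc1 and Trbc2 are nearly identical, so the counting may have split their reads.

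**Figure D3:**
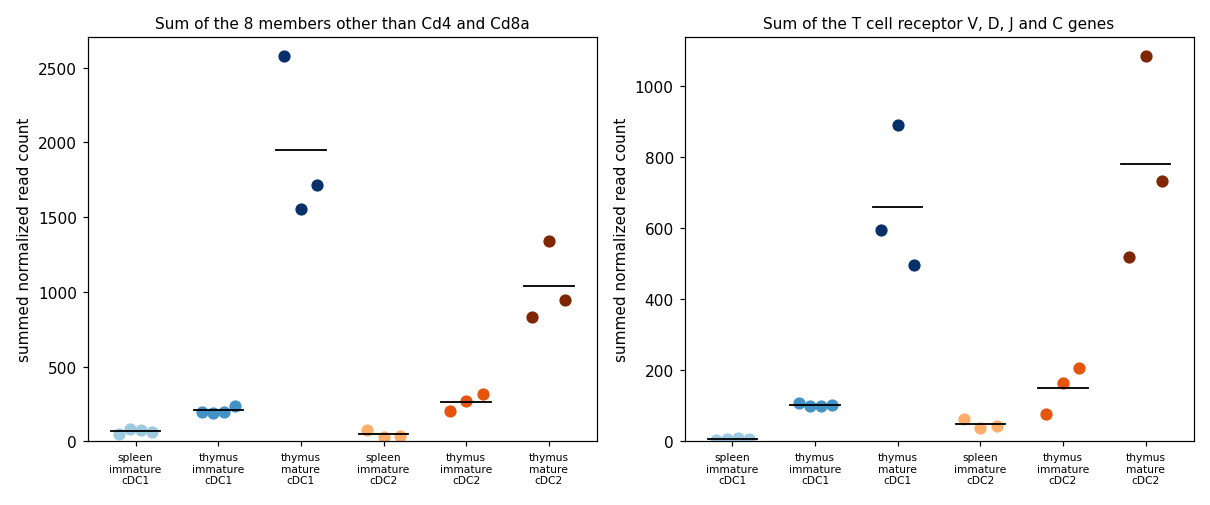
Summed normalized read count of the 8 members other than Cd4 and Cd8a (left) and of the T-cell receptor V, D, J and C genes (right), with points for samples and lines for group means. Both sums are highest in the mature thymic groups, at 829 to 2579 for the members and 495 to 1084 for the receptor genes.

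Of 4 genes known in T cells and dendritic cells alike, Il7r, a chain of the interleukin 7 receptor, had the largest maturation change in both subsets. It was at 10.9 to 44.8 in immature and 960.4 to 1564 in mature thymic cDC1, a rise of 5.67 ± 0.41 (limma adjusted p = 2.68e-10). Splenic cDC2 had 34.2 to 93.1, immature thymic cDC2 1061 to 1373 and mature thymic cDC2 5939 to 9349, so that it was already higher in immature thymic than splenic cDC2 by 4.29 ± 0.44 (adjusted p = 5.21e-07). That tissue difference was larger in cDC2 than in cDC1 by 4.93 ± 0.58 (adjusted p = 1.61e-05). Satb1, a chromatin organizer of thymocytes, was lower in thymic than splenic immature cells of both subsets, a tissue order opposite to that of Il7r only in cDC2. The thymic minus splenic log2 difference of Satb1 was -1.81 ± 0.18 in cDC1 (limma adjusted p = 4.19e-07) and -2.38 ± 0.21 in cDC2 (adjusted p = 6.29e-08). Satb1 thus had the tissue order of Cd4 in both subsets.

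Of 9 tested regulators of the coreceptor genes, all of which met the filter without the mature samples, 1 rose and 4 fell with maturation in cDC1 and 2 rose and 3 fell in cDC2, beside the shares of 18.9% and 26%, and 15.6% and 18.1%, given above. Runx1, which represses Cd4 in immature thymocytes, had 871 to 1188 normalized reads in immature and 98.8 to 162 in mature thymic cDC1. Its log2 change was -3.02 ± 0.19 (adjusted p = 2.56e-11) in cDC1 and -2.86 ± 0.20 (adjusted p = 4.35e-10) in cDC2. Runx3, which silences Cd4 and activates Cd8 in cytotoxic-lineage cells, was at 2211 to 4588 in splenic cDC1 and 5233 to 10489 in splenic cDC2. Zbtb7b, the gene of the CD4-lineage factor ThPOK, was at 868 to 2247 in all 20 samples and passed the test in none of the 4 tissue and maturation comparisons. Smarce1, a subunit of the BAF remodeling complex, rose with maturation by 2.09 ± 0.12 (adjusted p = 4.80e-12) in cDC1 and 1.17 ± 0.12 (adjusted p = 1.53e-07) in cDC2.

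Of 12 Src-family kinases and regulators of LCK, 8 fell with maturation in cDC1 and 6 in cDC2, beside 26% and 18.1% of all genes filtered in the same way, and 2 rose in each. The 2 were Src and Yes1, ubiquitous members of the kinase family. Src went from 73.8 to 156 up to 7641, 7631 and 10947 in cDC1, a rise of 6.10 ± 0.37 (adjusted p = 1.57e-11), and rose by 3.85 ± 0.39 (adjusted p = 8.53e-08) in cDC2, a cDC2 minus cDC1 difference of -2.24 ± 0.53 (adjusted p = 0.00793). Unc119, which binds the lipid anchor of LCK and related kinases, had 965 to 1684 normalized reads in immature and 20.3 to 28.8 in mature thymic cDC1, with a log2 change of -5.66 ± 0.79 (adjusted p = 3.26e-06) in cDC1 and -5.31 ± 0.84 (adjusted p = 2.71e-05) in cDC2. Ptpn22, a phosphatase that restrains LCK, changed by -3.89 ± 0.17 in cDC1 (adjusted p = 1.44e-13).

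The genes next to Cd4 and Cd8a did not share their patterns in full. On both sides of Cd4 lie Gpr162, Leprel2, Lag3 and Ptms. Gpr162, an orphan receptor gene, was higher in cDC2 than in cDC1 by 3.38 ± 0.47 in spleen (adjusted p = 1.12e-05) and by 2.41 ± 0.47 in immature thymus (adjusted p = 0.00053), and rose with maturation by 2.56 ± 0.47 (adjusted p = 8.09e-05) in cDC1. Lag3, a CD4-related inhibitory receptor gene, was lower in thymic than splenic cDC1 (log2 difference -1.47 ± 0.37, adjusted p = 0.00921), as Cd4 was, but held 1037 to 1252 in immature thymic cDC2 and 537 to 688 in splenic cDC2, where Cd4 was higher in spleen. Beside Cd8a, Smyd1, a muscle methyltransferase gene, was lower in cDC2 than in cDC1, with a log2 difference of -3.25 ± 0.53 in spleen (adjusted p = 8.56e-05) and -2.82 ± 0.53 in immature thymus (adjusted p = 0.000425). Rmnd5a and Rnf103 passed the test in none of the comparisons.

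Pearson correlation of the 6 group means of log2 values over 11281 genes, given as a description over 6 points that share the same libraries, named the genes most alike. For Cd4 these were Tbc1d30 (r = 0.986), Dennd1a, Irak4, Mbtd1 and Carf (r = 0.981). For Cd8a they were Gm1965 (r = 0.985), with means of 228 in splenic cDC1 and 1.36 in splenic cDC2, and Zfp84, Cisd3 and Leprel1 (r = 0.965). For Cd8b1 they were Gm26384 (r = 0.994), Fsd1l, Bivm, Prdx3 and Dcun1d1 (r = 0.986). Only genes with a group mean of at least 100 were compared, which left out T-lineage genes such as Cd3d and Cd3e. Whether Cd8b1 varied with T-lineage genes is therefore not read from these names.

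Other cell types were followed by their markers. The B-cell genes Cd79a, Cd79b, Ms4a1 and Pax5 summed to 561 to 969 in splenic cDC1 and 595 to 631 in splenic cDC2, but to 101 to 397 in the 4 thymic groups, and Cd79a was at 0 to 14.4 in all samples. The plasmacytoid DC genes Siglech, Bst2, Ly6d, Ccr9 and Tcf4 summed to 5023 to 8059 in mature thymic samples and 5174 to 12121 in immature thymic ones. Siglech, their defining gene, was at 0 to 40.8 in mature samples, but at 323 to 468 in immature thymic cDC1 and 732 to 1120 in immature thymic cDC2. In the spleen it was at 188 to 359 in cDC1 and 55.4 to 122 in cDC2. Bst2 and Ly6d went the other way with maturation. Mean Bst2 was 3019 in immature and 4927 in mature thymic cDC1, and 3834 and 4537 in cDC2. Mean Ly6d was 12.3 and 27.0 in cDC1, and 9.56 and 27.3 in cDC2. With maturation, 0 of the 5 were called higher and 2 lower in cDC1 (21.3% and 24.5% of all genes). In cDC2, 1 was called higher and 3 lower (18.6% and 17%). All 5 genes were called higher in thymic than splenic immature cDC2 (8.3% of all genes) and 1 in cDC1 (4.26%). The part of such cells in the member values was not tested. The macrophage genes C1qa, C1qb, C1qc and Mertk summed to 24.7 to 194 in splenic, 157 to 365 in immature thymic and 70.0 to 443 in mature thymic cDC1. In cDC2 they summed to 832 to 1321 in the spleen and 4575 to 7595 in immature thymic cells, which did not overlap, beside the tissue differences of Cd4, Cd8a and Il7r, and the part of such cells in those values was not tested. The sum of the 8 members other than Cd4 and Cd8a was 192 to 315 in immature thymic samples and 829 to 2579 in mature ones, and 29.4 to 83.8 in the spleen. The part of thymocyte RNA in the values of the members was not tested.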

How the data were processed

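RNA sequencing of FACS-sorted cDCs used a stranded mRNA library kit and paired reads. The authors used Cutadapt for trimming, STAR (2.6 in the submitters' processing notes) for alignment to mm10 and HTSeq-count for counting by Ensembl gene, and deposited DESeq2-normalized read counts (1.24.0), a signal equal to reads divided by 1 size factor per library. The annotation release and the strand setting of the counting are not given in the sources used here. Reads were recovered as whole multiples of the value of 1 read, within 0.05 of a whole number.

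The members and gene lists were chosen with earlier results of these data known, so members were not tested. Other genes were tested with limma 3.58.1 (R 4.3.3, eBayes with trend) on log2(deposited value + 1), with 1 mean for each of 6 groups and 20 samples, over the 14970 genes that reached 10 in 3 or more samples. Genes with a Benjamini-Hochberg adjusted p under 0.1 and a log2 change beyond 1 were called. Changes on this scale are understated for low genes. Folds of members are ratios of group means, or, where a group had at most 3 reads in every sample, bounds at 3 reads per library. These bounds cover counting error only. In GENCODE M21, 37607 of 37734 identifiers were found.

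The listed genes given with values were, by rule, up to 4 called genes per list and comparison with the largest change and a mean of at least 50 in 1 group. The 2 nearest protein-coding genes on each side of Cd4 and Cd8a, and the 5 genes most correlated with Cd4, Cd8a and Cd8b1, with a group mean of at least 100, were added. Trac, Trbc2, Runx3, Zbtb7b, Rag2, Ptcra and Gata3 were chosen outside this rule after their values were seen. Alternatives were edgeR 4.0.16 (TMM) and DESeq2 1.42.0 on the recovered reads, TMM-rescaled values, other pseudocounts, filters, thresholds and fitted groups, repeated libraries, sequencing lane, a replicate block and the omission of each sample. The methods were tested on simulated data. Adgre1 was not analysed here, and some genes that met these rules are not reported here.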

Additional observations from a re-analysis of the deposited data

Results flagged for a closer look

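Of 73 groups of 4 samples examined, each a gene in immature splenic or thymic cDC1, 15 had 1 sample far from the other 3, where chance alone gives about 1 in 20. That rate does not apply where 1 sample alone had reads, as for Cd3d, Cd3g, Rag1, Lef1, Endou and Arpp21 in splenic cDC1. No excess over chance is therefore read from the 15. Replicate 4 of splenic cDC1 also holds the reads of more than 1 library. Among the members, Cd4 was at 783 in splenic cDC1 replicate 3, and the averaged sample, replicate 4, was the only one with reads of Cd3d and Cd3g (1.76 each) and Rag1 (0.637) in splenic cDC1. Replicate 3 of splenic cDC1 also stood apart for Src (48.9), Unc119 (3015) and Fgr (2330.1). Splenic cDC1 replicate 1 stood apart for Lef1 (1.03) and Endou (4.12), and replicate 4 for Arpp21 (0.637). In immature thymic cDC1, replicate 4 stood apart for Endou (49.5) and Src (73.8), replicate 3 for Ptprc (18461) and Ptpn22 (3642), and replicate 2 for Lef1 (8.33).

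The effect of tissue or maturation differed between subsets by the limma test of the difference for 8 results of the list genes given with values, as log2 change in cDC2 minus that in cDC1. For maturation these were Cd247 (-2.98), Il7r (-3.05), Src (-2.24) and Ptpn22 (1.31). For tissue they were Il7r (4.93), Runx1 (1.36), Fgr (-1.64) and Ptpn22 (-1.22). Cd8a was lower in every thymic than every splenic cDC1 sample (log2 difference -1.33) and higher in every thymic than every splenic cDC2 sample (2.30). That difference between subsets was not tested.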

How the results depend on the processing

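The number of list genes called among 50 stayed within 1.5 times under most alternatives. It moved further in the following cases. With a pseudocount of 8, and with lane 8 libraries only, the count for splenic cDC2 against cDC1 went from 19 to 11. With adjusted p alone, immature thymic cDC2 against cDC1 went from 7 to 16, mature thymic cDC2 against cDC1 from 10 to 16 and the difference of maturation effects from 4 to 9, since the fold threshold was dropped. The difference of tissue effects went from 9 to 14 with DESeq2 and to 2 with lane 8 libraries only, which leaves fewer samples. Where no such value shows it, the cause was not tested. With single samples left out, the counts were 18 to 20 and 13 to 21 between tissues in cDC1 and cDC2, 39 to 43 and 33 to 39 for maturation, 17 to 20, 5 to 9 and 8 to 11 between subsets in spleen, immature and mature thymus, and 8 to 11 and 4 to 6 for the differences of effects. Counting only list genes that met the filter without the mature samples, also chosen after seeing the data, gave 37 and 32 of 43 for maturation in place of 43 and 38 of 50. A replicate block on the library number gave 19 calls in spleen and 9 in immature thymus, and the same libraries without it, an alternative chosen after seeing the data, 17 and 8. Same-numbered samples correlated at -0.01 to 0.43 in spleen and -0.03 to 0.27 in thymus, so the numbers were not taken to pair samples.

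Of 70 differences of members between groups, 10 changed sign or fell to 0 under some alternative. They included Cd8a between mature and immature thymic cDC1, Cd8b1 between thymic and splenic cDC1, and Cd3d, Cd3e and Lck between mature cDC2 and cDC1. With lane 8 libraries only, the thymic minus splenic difference in cDC2 became 2.99 for Cd8a, 3.05 for Cd8b1, 1.89 for Cd3g and 4.87 for Themis, and the splenic cDC2 minus cDC1 difference of Cd3g 1.83. TMM rescaled samples by 0.958 to 1.03. Depth limits the CD3 genes in the spleen, which rested on 0 to 16 reads per sample.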
